A study of Mus musculus with 48 samples.

Results

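The 50 genes described here act in S phase, when DNA is copied, or in G2 and M phase, when the cell prepares for division and divides. They were taken as a named list of 24 S phase and 26 G2 and M phase genes. No measured value was used as a rule for the choice, but earlier results of these data were known when it was made. All 50 were found among the 23284 gene symbols of the table, each on 1 row. RNA was sequenced from 48 single mouse cells of 1 group. Embryonic stem cells of strain 129P2/OlaHsd carrying an inducible copy of Mesp1, a transcription factor of nascent mesoderm, were allowed to differentiate as floating aggregates (embryoid bodies). Doxycycline at 500 ng/ml turned the copy on between days 2.25 and 3.25, and on day 4 live cells were sorted by their exclusion of propidium iodide and isolated one by one in a Fluidigm C1 device. Every cell had been induced, no culture is named in the labels, and the 48 cells therefore stood as 1 sample, described over cells with no p-value. The sources used here do not say which promoter or locus carries the inducible copy.

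The genes of S phase are switched on by E2F transcription factors once cyclin E and its kinase inactivate the Rb family, and their products license origins, unwind and copy DNA, make deoxynucleotides and package new chromatin. The genes of G2 and M phase come later: in quiescent and G1 cells the DREAM complex holds them down, and B-MYB and FOXM1 raise them as the cell nears division, when the anaphase-promoting complex also removes several of their proteins. Pluripotent and early embryonic cells cycle fast with short gap phases.

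All levels are treated as FPKM, although the deposited values name no unit. FPKM are read fragments divided by transcript length and by the mapped total, which lets genes be set beside each other. The sources used here do not state the scaling of these values. A gene was called detected in a cell at 1 FPKM or more. Between 4788 and 7010 genes were detected per cell (median 6212). That number was lower in cells with a higher number in their label (Spearman's rho = -0.82, 48 cells), and the labels do not say what the number is. The depth of a cell relative to the others, read from the spacing of its low values, spanned 1.55-fold (0.758 to 1.17). Absolute depth is unknown. Mesoderm was looked for with 10 markers, among them Mesp1, which was itself induced and so cannot speak to cell identity. All 10 were detected in at least 12 cells, from 22 cells for Kdr (median 0.578 FPKM) to 38 for Lhx1. Their summed level, Mesp1 included, ran from 18.9 to 859 FPKM (median 317 FPKM). Of 4 endothelial and 4 blood markers, none reached 12 cells, Cdh5 was listed at 0 in all cells, and so were 3 of the blood markers. The 5 pluripotency markers summed to between 0 and 4343 FPKM, with 3 of them in at least 12 cells.

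The promoters of the genes that moved most closely with their own phase are printed first, since promoters of cell cycle genes are known to carry short elements that time them. They come from RefSeq (GRCm38.p6), cover 250 bases before to 50 bases after the transcript start and run from 5′ to 3′ in the direction of the gene. Capitals mark 3 kinds of match, searched on both strands: the CHR (cell cycle genes homology region) TTTGAA, bound by the DREAM complex, the CCAAT box, bound by NF-Y, and an E2F-type site, written as GCGGGAA or as TTGGCGC. The last of these can share bases with a CCAAT box, and overlapping matches were each counted. A match describes letters only. Of the S phase genes, Rrm2 (chr12:24708004-24708303, plus strand), Ung (chr5:114130185-114130484, plus strand), Pcna (chr2:132253131-132253430, minus strand) and Chaf1b (chr16:93883651-93883950, plus strand) are shown as the 4 with the highest mean correlation to the other S phase genes among those with a promoter on hand, and Mcm5 (chr8:75109259-75109558, plus strand), chosen after the matches were seen, as one with both an E2F-type site and CCAAT boxes.
Rrm2: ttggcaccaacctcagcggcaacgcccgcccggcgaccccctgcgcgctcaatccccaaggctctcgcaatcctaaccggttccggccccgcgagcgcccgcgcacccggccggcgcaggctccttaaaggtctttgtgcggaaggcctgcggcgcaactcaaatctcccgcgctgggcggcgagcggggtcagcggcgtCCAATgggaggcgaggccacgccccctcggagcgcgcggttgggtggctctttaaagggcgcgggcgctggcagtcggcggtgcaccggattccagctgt
Ung: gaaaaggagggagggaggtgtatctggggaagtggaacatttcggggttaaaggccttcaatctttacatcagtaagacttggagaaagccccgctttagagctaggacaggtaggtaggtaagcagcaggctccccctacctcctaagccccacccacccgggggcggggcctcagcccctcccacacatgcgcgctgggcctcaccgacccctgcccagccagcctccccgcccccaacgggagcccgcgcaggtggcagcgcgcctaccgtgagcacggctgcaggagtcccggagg
Pcna: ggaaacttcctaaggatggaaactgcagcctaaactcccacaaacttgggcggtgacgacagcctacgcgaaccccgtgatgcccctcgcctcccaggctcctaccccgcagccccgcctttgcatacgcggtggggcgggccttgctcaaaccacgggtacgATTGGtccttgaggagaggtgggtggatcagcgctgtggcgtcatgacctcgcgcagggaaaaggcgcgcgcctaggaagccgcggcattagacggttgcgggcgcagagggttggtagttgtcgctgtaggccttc
Chaf1b: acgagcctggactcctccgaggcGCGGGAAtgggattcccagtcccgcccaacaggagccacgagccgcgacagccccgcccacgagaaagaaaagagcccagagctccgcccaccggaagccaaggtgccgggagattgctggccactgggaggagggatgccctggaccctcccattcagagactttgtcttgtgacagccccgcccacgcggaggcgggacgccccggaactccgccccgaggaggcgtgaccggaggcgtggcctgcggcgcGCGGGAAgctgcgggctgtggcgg
Mcm5: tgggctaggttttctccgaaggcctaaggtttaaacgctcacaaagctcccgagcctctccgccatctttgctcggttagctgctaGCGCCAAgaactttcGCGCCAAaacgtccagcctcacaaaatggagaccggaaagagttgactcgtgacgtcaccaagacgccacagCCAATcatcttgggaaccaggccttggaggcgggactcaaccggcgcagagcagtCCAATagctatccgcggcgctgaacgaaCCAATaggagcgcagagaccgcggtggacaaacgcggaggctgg

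Of the G2 and M phase genes, Ube2c (chr2:164769679-164769978, plus strand), Aurka (chr2:172370521-172370820, minus strand), Nusap1 (chr2:119618048-119618347, plus strand) and Ccnb1 (chr13:100786437-100786736, minus strand) are shown by the same rule, and Cdk1 (chr10:69352863-69353162, minus strand), also chosen after the matches were seen, as one that holds all 3 kinds.
Ube2c: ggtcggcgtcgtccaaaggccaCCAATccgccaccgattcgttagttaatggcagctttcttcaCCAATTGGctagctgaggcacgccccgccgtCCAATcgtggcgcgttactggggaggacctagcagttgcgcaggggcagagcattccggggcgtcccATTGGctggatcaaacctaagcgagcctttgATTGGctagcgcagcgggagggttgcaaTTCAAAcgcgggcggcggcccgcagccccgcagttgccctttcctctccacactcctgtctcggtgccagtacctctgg
Aurka: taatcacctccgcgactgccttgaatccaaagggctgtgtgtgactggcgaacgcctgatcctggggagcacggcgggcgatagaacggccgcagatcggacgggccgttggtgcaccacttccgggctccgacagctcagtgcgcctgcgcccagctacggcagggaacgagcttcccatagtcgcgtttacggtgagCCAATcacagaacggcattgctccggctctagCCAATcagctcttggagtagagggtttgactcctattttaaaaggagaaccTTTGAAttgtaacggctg
Nusap1: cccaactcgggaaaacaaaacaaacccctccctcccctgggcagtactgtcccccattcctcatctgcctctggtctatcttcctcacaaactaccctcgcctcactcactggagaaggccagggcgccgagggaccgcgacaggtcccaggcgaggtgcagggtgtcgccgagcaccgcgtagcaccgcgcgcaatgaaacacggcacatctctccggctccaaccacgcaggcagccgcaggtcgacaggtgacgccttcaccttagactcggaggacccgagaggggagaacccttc
Ccnb1: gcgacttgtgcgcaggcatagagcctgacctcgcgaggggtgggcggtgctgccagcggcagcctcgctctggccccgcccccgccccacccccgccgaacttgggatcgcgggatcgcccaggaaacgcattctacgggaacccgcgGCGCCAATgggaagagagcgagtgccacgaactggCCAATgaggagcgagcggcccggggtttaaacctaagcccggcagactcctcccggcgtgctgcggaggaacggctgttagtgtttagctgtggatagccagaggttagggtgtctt
Cdk1: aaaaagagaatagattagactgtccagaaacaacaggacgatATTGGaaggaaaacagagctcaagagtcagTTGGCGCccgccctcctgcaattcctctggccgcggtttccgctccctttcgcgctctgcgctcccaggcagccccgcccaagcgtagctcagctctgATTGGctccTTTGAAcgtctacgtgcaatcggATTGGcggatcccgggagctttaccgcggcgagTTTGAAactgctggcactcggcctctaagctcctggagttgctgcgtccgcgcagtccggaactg

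A promoter was on hand for 44 of the 50 genes, 24 of G2 and M phase and 20 of S phase. Those of Aurkb, Ccne2, Gins2, Mcm4, Rfc2 and Tpx2 were not used. The CHR was found in 18 of 24 G2 and M phase promoters (75%) and in 3 of 20 S phase promoters (15%), beside 18.1% of all 27025 mouse promoters of that length. Among 4196 other genes that were detected in at least 24 of these cells, 12.4% held it. The E2F-type site had the opposite distribution, with 3 of 24 G2 and M phase promoters (12.5%) and 11 of 20 S phase promoters (55%), beside 6.93% of all promoters and 14.5% of the other detected genes. CCAAT boxes were common in both phases: 79.2% of G2 and M phase and 60% of S phase promoters had at least 1, against 37.9% of all promoters and 41.6% of the other detected genes. At least 2 were found in 58.3% of G2 and M phase and 40% of S phase promoters, against 12.2% of all promoters.

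The CHR and the CCAAT box stood together in 16 G2 and M phase promoters (66.7%) and in 10% of S phase promoters, against 7.12% of all promoters. In 16 of the 18 G2 and M phase genes with a CHR, at least 1 copy began within the last 50 bases before the transcript start or after it. Over those genes' 24 matches the median start was at 2 bases after the transcript start. CCAAT boxes lay further upstream in the same phase, at a median of -74.5 bases. The promoters of Nusap1 and Ung, printed above, held none of the 3. The 18 G2 and M phase genes with a CHR had a median mean rho to their phase of 0.43, and the 6 without had 0.50. For the E2F-type site the medians were 0.13 in the 11 S phase genes with it and 0.086 in the 9 without, and 0.48 in the 3 G2 and M phase genes with it and 0.46 in the 21 without, as descriptions with no test.

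**Figure D1:**
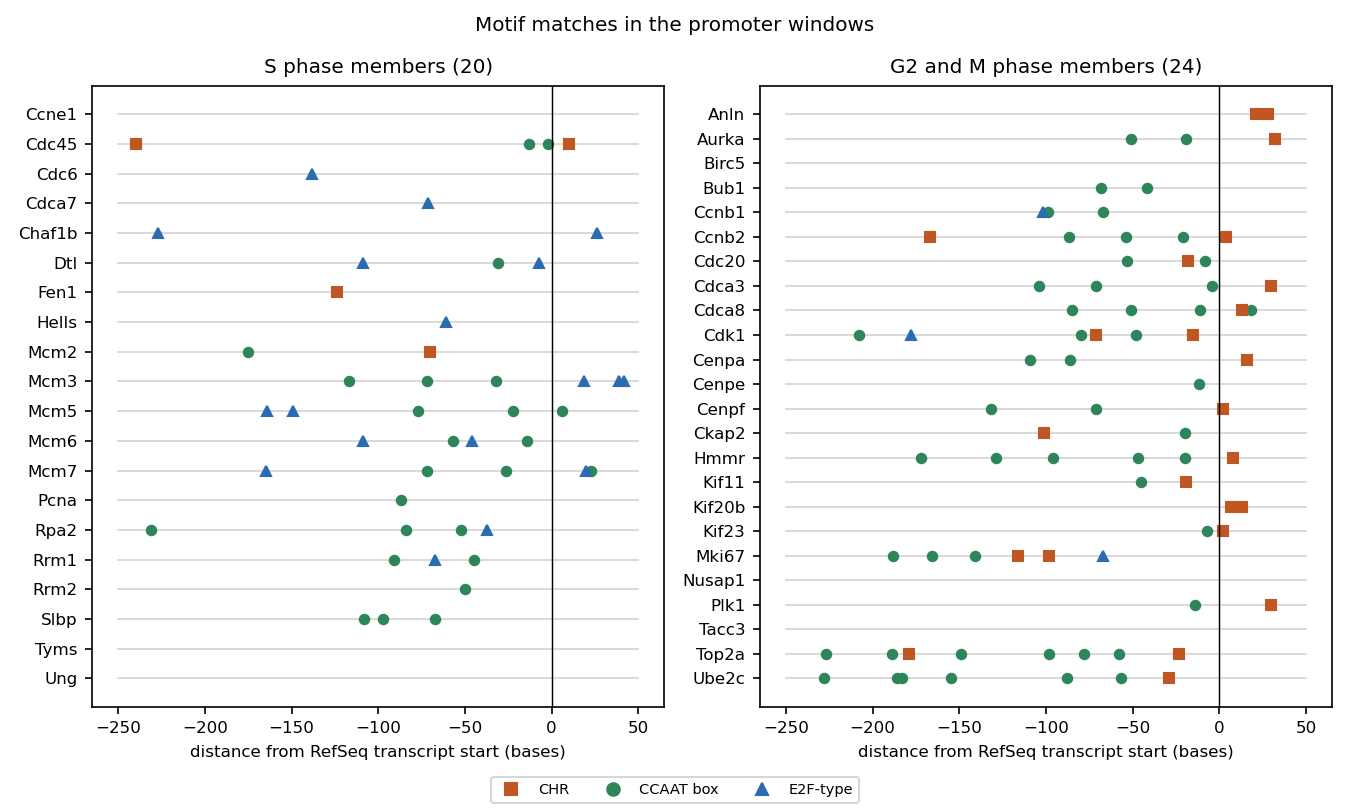
Positions of motif matches in the promoter windows of 20 S phase genes (left) and 24 G2 and M phase genes (right); the x axis is the distance in bases from the RefSeq transcript start, grey lines span the window, squares are CHR, circles CCAAT boxes and triangles E2F-type sites. CHR matches cluster around the start in G2 and M phase genes (18 of 24 have one), and E2F-type sites are spread over 11 of 20 S phase genes.

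Nearly the whole list was expressed. Of the 50 genes, 49 were detected in at least 24 of the 48 cells, against a background of 25.2% of all symbols. Ccne2, the second E-type cyclin, was the exception with 17 cells (35.4%, exact Clopper-Pearson 95% interval 22.2% to 50.5%, which covers counting error only). The phases differed in how steadily they were detected. Of the G2 and M phase genes 0 of 26, and of the S phase genes 8 of 24, were at 1 FPKM or more in all 48 cells (4.99% of all symbols were). The median gene of G2 and M phase was detected in 40.5 cells and that of S phase in 47 cells. A value of 0 is reported only as listed, because Tbp, a housekeeping gene, was detected in 41 of the 48 cells. Actb, Gapdh, Eef1a1 and Ppia were detected in all 48. Hprt was detected in 31 cells. It is not used as a gauge here, since the sources do not say which locus carries the inducible copy.

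**Figure D2:**
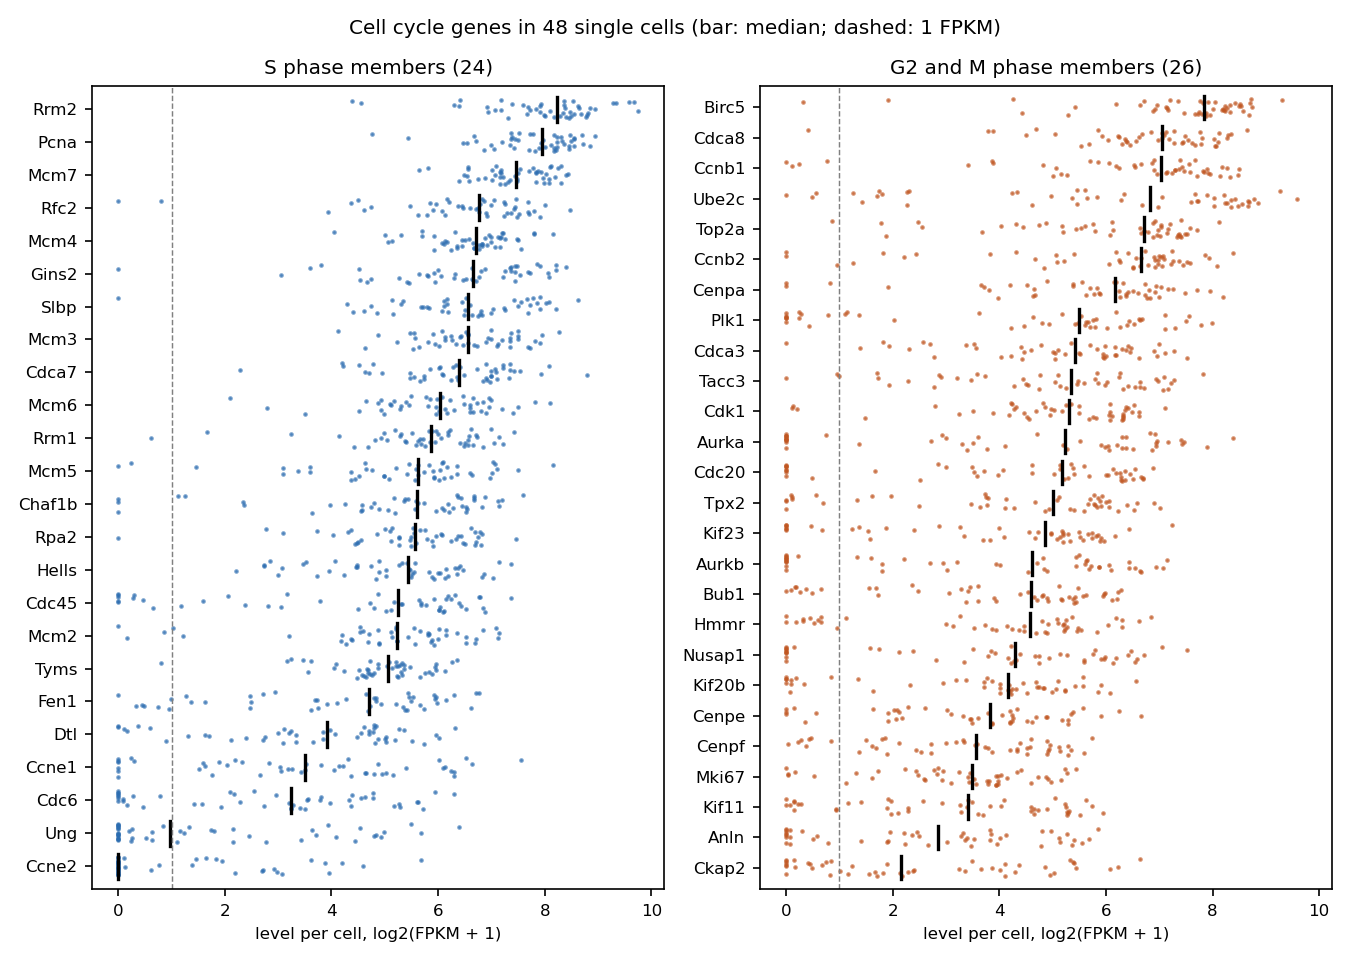
Level of each gene in each of the 48 cells as log2(FPKM + 1), with S phase genes on the left and G2 and M phase genes on the right, ordered by median; each point is a cell, the black bar is the median over cells and the dashed line marks 1 FPKM. Of the S phase genes 8 have no cell left of the dashed line, and every G2 and M phase gene has at least 1.

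The licensing and helicase genes ranged from steady to uneven. Mcm2 to Mcm7 encode the ring of the replicative helicase that is loaded on origins in G1. Mcm3, Mcm4, Mcm6 and Mcm7 were detected in all 48 cells, Mcm5 in 46 and Mcm2 in 45, with medians between 36.6 FPKM for Mcm2 and 175 FPKM for Mcm7. Mcm7 varied least over cells of the 50 genes: it ran from 49.1 to 343 FPKM, and its standard deviation was 0.42 of its mean. Mcm4 had a median of 104 FPKM (15.6 to 286 FPKM). The loader Cdc6, which brings the ring to the origin, was lower and less often detected, in 35 cells, with 8.46 FPKM in the median cell and 77.6 FPKM in the highest.

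Cdc45 and the GINS complex, of which Gins2 is a subunit, join the ring to make it an active helicase. Gins2 was detected in 47 cells and ran from 0 to 336 FPKM (median 99.4 FPKM), and Cdc45 was detected in 39 cells and ran from 0 to 165 FPKM (median 36.9 FPKM). Their transcripts had a negative rho over cells (rho = -0.37, 48 cells, the lowest of all 276 S phase pairs; -0.30 in 25 cells with label numbers up to 48 and -0.20 in 23 cells above). The ring's own 15 pairs had a median rho of 0.19, from -0.06 to 0.55. Mcm2 and Mcm6 were the pair at 0.55 (0.69 up to label 48 and 0.36 above).

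At the fork, Pcna, the sliding clamp of DNA polymerases, was detected in all cells at 25.96 to 489 FPKM (median 246 FPKM). Rfc2, a subunit of the clamp loader, was detected in 46 cells (median 109 FPKM). Rpa2, of the single-strand binding complex, was detected in 47 cells (median 46.4 FPKM). Fen1, the nuclease that trims Okazaki fragments on the clamp, was detected in 41 cells and had a median of 25.05 FPKM (0 to 107 FPKM). Pcna, Fen1 and Rfc2 had a median rho of -0.01 over their 3 pairs. Ung, the uracil-DNA glycosylase, was the lowest of the group: 24 cells detected it, 16 listed it at 0, the median was 0.965 FPKM and the highest cell had 82.7 FPKM.

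Rrm2, the regulated subunit of ribonucleotide reductase, had the highest median of the 50 genes. The median cell had 300.1 FPKM within a range of 19.8 to 862 FPKM. It was lowest in cell C92 and highest in cell C39. The other subunit, Rrm1, ran from 0.538 to 171 FPKM (median 57.2 FPKM), and Tyms, thymidylate synthase, from 0.739 to 80.6 FPKM (median 32.5 FPKM). Rrm1 and Rrm2 correlated at 0.21 over cells. Rrm2 correlated more closely with Pcna (rho = 0.60, the highest S phase pair; 0.42 up to label 48 and 0.74 above) and with Hells (0.53; 0.29 and 0.72).

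The cyclins that start S phase were low. Ccne1 (40 cells, median 10.4 FPKM) reached 186 FPKM in cell C87, 14.99% of its sum over all cells. Ccne2 had a median of 0 FPKM and reached 50.3 FPKM in cell C81, which held 28.3% of its sum, the largest share that 1 cell held of any of the 50 genes. The 2 cyclins correlated at 0.02. Dtl, the substrate receptor that destroys the licensing factor Cdt1 on replicating DNA, was detected in 41 cells (median 14.1 FPKM), and its rho was -0.37 to Ccne1 (-0.41 up to label 48, -0.45 above) and -0.32 to Fen1 (-0.37 and -0.22).

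Chromatin genes of S phase were detected in more cells than the E cyclins and Dtl. Their standard deviations, 0.73 (Slbp) to 0.79 (Hells) of their means, lay near the S phase median of 0.74. Hells, a chromatin remodeller needed for DNA methylation, and Cdca7, its partner, were detected in all cells, with medians of 42.4 and 83.2 FPKM. Slbp, which binds the stem-loop of histone mRNAs, was detected in 47 cells (median 93.1 FPKM), and Chaf1b, a subunit of the chromatin assembly factor, in 45 (median 47.8 FPKM). Hells and Cdca7 correlated at 0.11.

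The mitotic kinases and cyclins had wide ranges. Cdk1, the kinase that drives mitosis, was detected in 45 cells and ran from 0.0872 to 137 FPKM (median 38.4 FPKM). Its cyclins were higher: Ccnb1 ran from 0 to 361 FPKM (median 131 FPKM, 44 cells) and Ccnb2 from 0 to 335 FPKM (median 99.4 FPKM, 45 cells). Plk1, a kinase of mitotic entry and spindle assembly, ran from 0 to 252 FPKM (median 44.4 FPKM, 37 cells). Aurka, the spindle pole kinase, ran from 0 to 331 FPKM (median 36.7 FPKM), and Aurkb, the kinase of the chromosomal passenger complex, from 0 to 141 FPKM (median 23.6 FPKM). Both Aurora kinases were detected in 36 cells and listed at 0 in 11.

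The gene with the widest spread for its level was Ube2c, the ubiquitin-conjugating enzyme of the anaphase-promoting complex. It ran from 0 to 770 FPKM, with quartiles of 18.9 and 313 FPKM around a median of 113 FPKM. Its squared coefficient of variation was 4.51 times that of the trend over genes of the same mean. A value over 2-fold was called, and 4 of 49 genes passed (Ube2c, Aurka at 2.62, Rrm2 at 2.35 and Plk1 at 2.16), beside 10.6% of 6266 symbols with enough signal. That share of the list is near the background. Below the trend were 18 of 49, beside 48.9%. Of the other genes of mitotic exit and its checkpoint, Cdc20, the activator of the same complex, was detected in 39 cells (median 35.3 FPKM), Bub1, a checkpoint kinase, in 40 (median 23.2 FPKM) and Cdca3, which promotes degradation of Wee1, in 47 (median 42.1 FPKM).

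On chromosomes, Birc5, the survivin subunit of the passenger complex, had the highest median of G2 and M phase at 229 FPKM (0.243 to 631 FPKM, 47 cells). Cdca8, its borealin subunit, followed with 132 FPKM (0.323 to 400 FPKM, 47 cells). Top2a, the topoisomerase that untangles sister chromatids, had a median of 104 FPKM in 47 cells. Cenpa, the centromeric histone H3 variant, had a median of 70.8 FPKM, Cenpe, the kinetochore motor, 13.2 FPKM, and Cenpf, of the outer kinetochore, 10.8 FPKM. Mki67, whose protein coats mitotic chromosomes and is the usual stain for cycling cells, reached 1 FPKM in 43 cells (median 10.2 FPKM).

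Spindle and cytokinesis genes had lower medians, none above 39.9 FPKM. Tpx2, which activates Aurka on microtubules, Nusap1, a microtubule bundler, Hmmr, a spindle assembly factor, and Tacc3, which bridges kinetochore fibres, had medians of 31.2, 18.6, 22.9 and 39.9 FPKM in 40, 38, 37 and 45 cells. The spindle motor Kif11 and the microtubule protein Ckap2 had medians of 9.59 and 3.48 FPKM, in 38 and 33 cells. Kif23, the motor of the spindle midzone, Kif20b, another motor of cytokinesis, and Anln, the scaffold of the contractile ring, had medians of 27.98, 16.98 and 6.24 FPKM in 40, 38 and 34 cells. Ckap2 was thus the lowest G2 and M phase gene, and still exceeded Ung and Ccne2 of S phase.

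Most of the G2 and M phase genes were positively related to each other over cells. Over their 325 pairs the median rho was 0.46, 128 pairs (39.4%) were at 0.5 or more, and 4 (1.23%) were negative. Of all pairs of symbols detected in at least 5 cells, 0.0454% were at 0.5 or more, and of those in at least 24 cells 0.0635%, with medians of 0.015 and 0.019. A negative rho was found in 46.1% of the pairs of symbols detected in at least 5 cells. The median was 0.35 in the 25 cells with label numbers up to 48 and 0.42 in the 23 cells above. All pairs share the 48 cells and their number of detected genes, with which all 26 genes correlated positively (median rho 0.31). With that number regressed out the median was 0.41, and with relative depth regressed out 0.43.

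The S phase genes were only loosely related. Over 276 pairs the median rho was 0.11, 4 pairs (1.45%) were at 0.5 or more, and 58 were negative. The median was 0.13 up to label 48 and 0.12 above, and 14 of 24 genes correlated positively with the number of detected genes (median 0.02). Pairs of 1 gene from each phase leaned the other way: over 624 pairs the median was -0.11, none reached 0.5, and 458 (73.4%) were negative. The background share of negative pairs, over all symbols detected in at least 5 cells, was 46.1%. The pairs between phases had a median of -0.18 up to label 48 and -0.07 above. Most of these single correlations are weak, and in sparse data a weak value for 1 pair is not read as a relation.

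**Figure D3:**
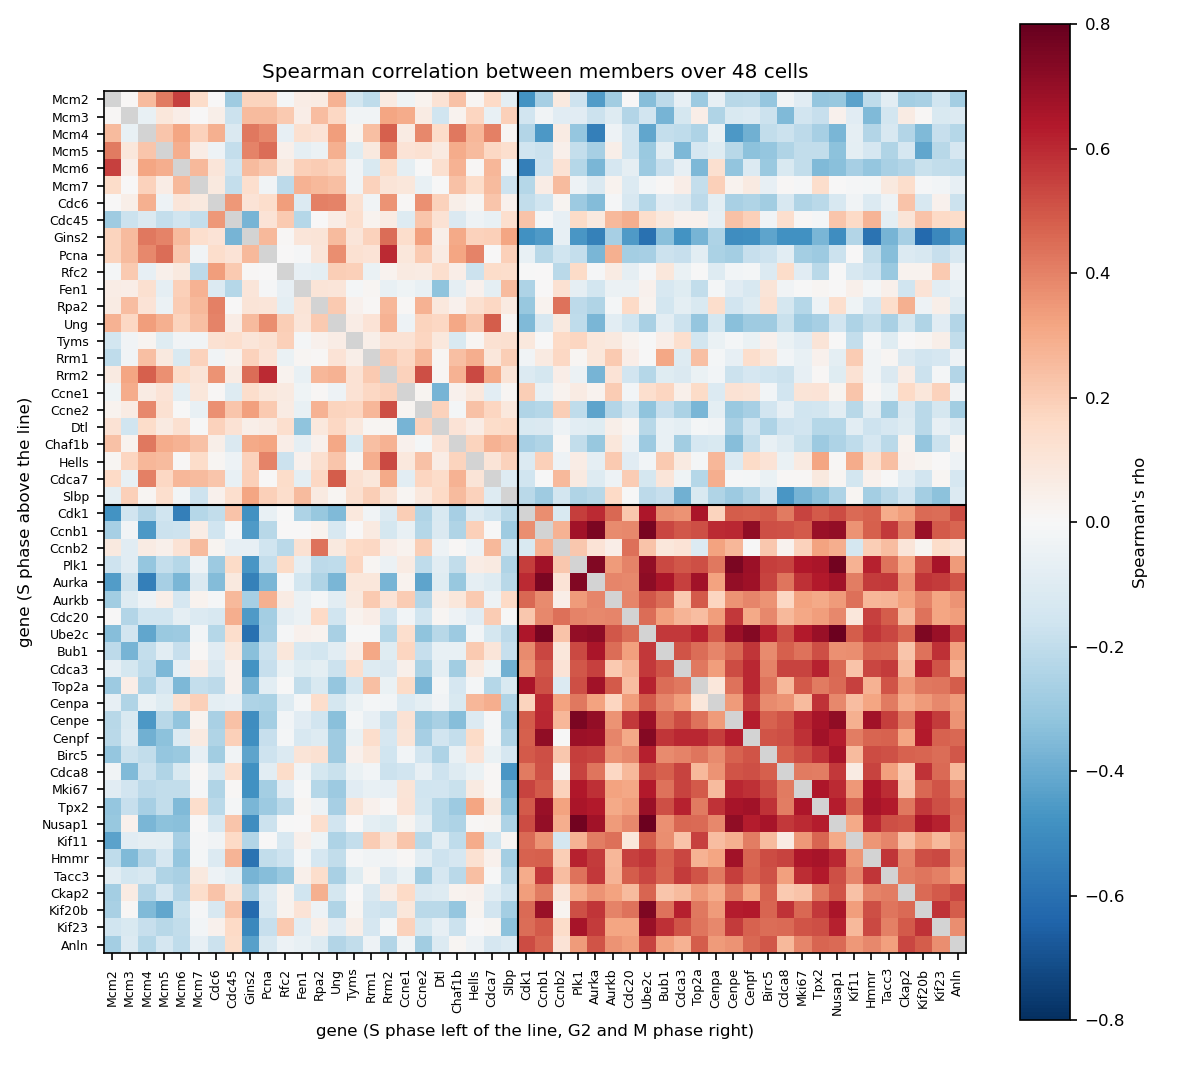
Spearman correlation over 48 cells of every pair of the 50 genes, with S phase genes left of and above the lines; red is positive, blue negative and the diagonal grey. The G2 and M phase block is red almost throughout (median 0.46), the S phase block is pale (0.11), and the blocks between the phases are mostly pale blue (-0.11).

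The closest G2 and M phase pairs joined regulators of exit, entry and the spindle. Ube2c and Nusap1 correlated at 0.78 (0.70 up to label 48 and 0.81 above), Plk1 and Nusap1 at 0.77 (0.63 and 0.71), Ccnb1 and Ube2c at 0.76 (0.59 and 0.80), Ccnb1 and Aurka at 0.75 (0.61 and 0.85), and Plk1 and Cenpe at 0.75 (0.72 and 0.72). Ube2c stood at the centre of the group with a mean rho of 0.60 to the other 25 genes, of which 19 were at 0.5 or more. Aurka followed with 0.55, Tpx2 and Nusap1 with 0.54 each. In the cells up to label 48 and above it, the means of Ube2c were 0.50 and 0.54, of Aurka 0.44 and 0.50, of Tpx2 0.41 and 0.55, and of Nusap1 0.40 and 0.53.

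Ccnb2 was less closely related to the phase than Ccnb1. Its mean rho to the other G2 and M phase genes was 0.14 (0.02 up to label 48 and 0.11 above), none of its 25 pairs reached 0.5, and it was in all of the 4 negative pairs of the phase. Among them were those with Kif11 (rho = -0.14), with Cdk1, its own kinase partner (-0.12), and with Top2a (-0.11). Ccnb1, by contrast, had a mean of 0.54 and 14 pairs at 0.5 or more. The median levels of the 2 cyclins are given above and were similar. The closest gene to Ccnb2 across the phases was Rpa2 of S phase (0.44, the highest of all 624 pairs between phases; 0.45 up to label 48 and 0.40 above). The next lowest means were 0.31 for Kif11, 0.34 for Aurkb and 0.35 for Ckap2. Ccnb1, Ccnb2, Aurkb, Pcna and Tyms have pseudogenes named after them, and the sources used here do not say how reads shared with such copies were counted.

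Genes of 1 complex were not always the closest. Aurka and its activator Tpx2 correlated at 0.63, and the kinetochore and checkpoint genes Cenpe, Cenpf and Bub1 had a median of 0.57 over 3 pairs. Aurkb, Birc5 and Cdca8 of the passenger complex had a median of 0.36, below the median of the phase. Cdk1 and the B cyclins had 0.28, and Cdc20 and Ube2c of the anaphase-promoting complex 0.44. By role, medians within the 5 groups of G2 and M phase lay between 0.38 for kinases and cyclins and 0.49 for cytokinesis, close to their medians to the rest of the phase (0.45 to 0.47).

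In S phase the highest mean rho to the phase were 0.25 for Rrm2, 0.21 for Mcm4 and Ung, and 0.20 for Pcna. The lowest were -0.03 for Cdc45, 0.01 for Fen1, 0.03 for Ccne1 and 0.05 for Tyms. Up to label 48 and above it the means of Rrm2 were 0.27 and 0.25, of Mcm4 0.26 and 0.16, of Ung 0.29 and 0.13, and of Pcna 0.17 and 0.22. Beside the pairs named above, Rrm2 and Ccne2 correlated at 0.52 (0.43 and 0.62) and Ung and Cdca7 at 0.48 (0.53 and 0.46). Even so, 48 of the 50 genes had a higher mean rho to their own phase than to the other: 26 of 26 of G2 and M phase and 22 of 24 of S phase. Cdc45 and Ccne1 were the exceptions, and neither held in every setting. Up to label 48 Cdc45 was higher to its own phase (-0.04 against -0.08), and above it lower (0.01 against 0.13). Ccne1 was lower to its own phase up to label 48 (-0.08 against 0.06) and above (0.073 against 0.083). With the number of detected genes regressed out, Ccne1 was higher to its own phase (0.033 against 0.015).

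Gins2 had the lowest mean rho to the other phase of the S phase genes. All 26 of its correlations with G2 and M phase genes were negative, with a mean of -0.42 (-0.26 up to label 48 and -0.33 above). The lowest of all pairs between phases were its pairs with Kif20b (rho = -0.62; -0.42 up to label 48 and -0.58 above), Ube2c (-0.60; -0.43 and -0.47) and Hmmr (-0.59; -0.45 and -0.49). Gins2 also had the lowest rho to the number of detected genes of the S phase genes (-0.28). With that number regressed out its mean to the other phase was -0.37. Mcm4 had a mean of -0.24 to G2 and M phase, with 25 of 26 negative. At the other end, Cdc45 had a mean of 0.11 with 6 negative (mean -0.08 up to label 48 and 0.13 above). The positive pairs between phases that ranked after Rpa2 and Ccnb2 were Hells with Tpx2 (0.32), Rrm1 with Bub1 (0.31), Hells with Kif11 (0.30) and Cdc45 with Cdc20 (0.29). Of these, all were lower in the cells up to label 48 (0.09, 0.18, 0.04 and 0.08) than in those above (0.41, 0.47, 0.47 and 0.33).

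Seen by cell, the mean level of the mitotic genes varied more than that of the S phase genes. The mean level of the 26 G2 and M phase genes, as log2(FPKM + 1), ran from 1.19 to 6.46 with a median of 4.66 (SD over cells 1.45). That of the 24 S phase genes ran from 3.75 to 6.23 with a median of 5.23 (SD 0.58). The spread of such a mean also depends on how closely its genes move together. Gene by gene, the median coefficient of variation was 0.94 in G2 and M phase and 0.74 in S phase. The median squared coefficient of variation was 1.23 and 1.07 times that of the trend. All 26 G2 and M phase genes were detected in 18 cells, and fewer than 20 in 10 cells, of which 3 had fewer than 13. All 24 S phase genes were detected in 4 cells, and no cell had fewer than 18.

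**Figure D4:**
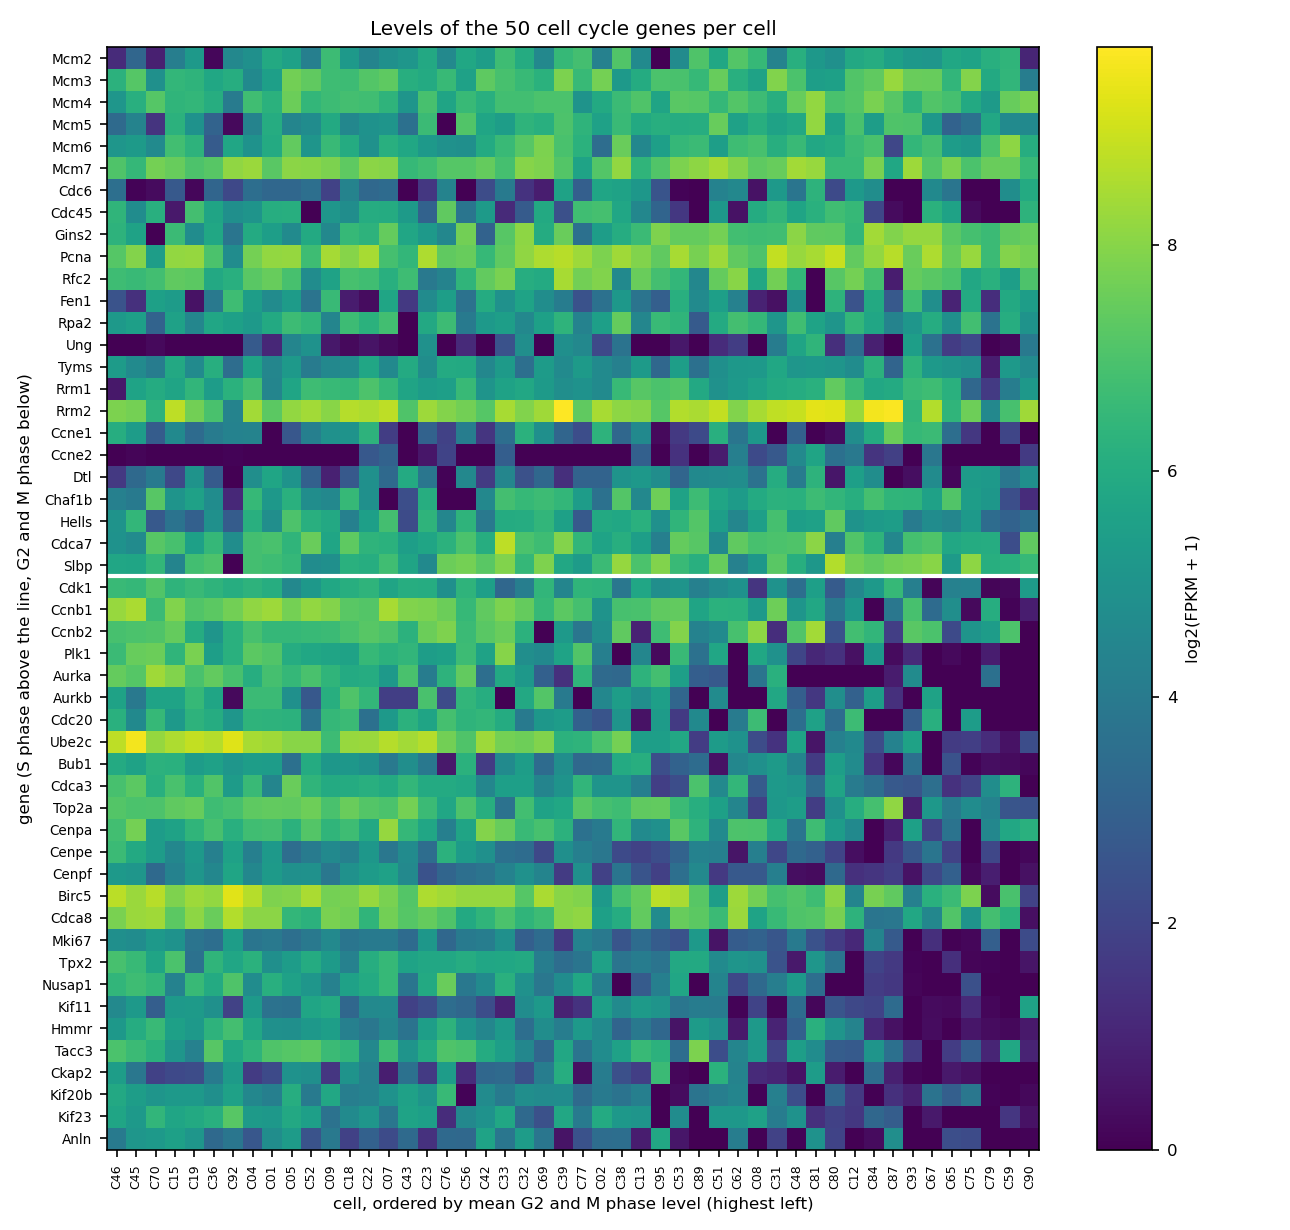
Level of the 50 genes in each of the 48 cells as log2(FPKM + 1), S phase genes above the white line and G2 and M phase genes below it, with cells ordered from the highest mean G2 and M phase level on the left. Below the line the columns darken together from left (6.46 in cell C46) to right (1.19 in cell C90), and above it no such gradient runs through the genes.

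Single cells at the ends show the range. Cell C46 had the highest G2 and M phase mean (6.46) with all 26 genes detected and an S phase mean of 4.48. Cell C92 had the lowest S phase mean (3.75), with 25 of 26 G2 and M phase genes at a mean of 5.97. Cell C67 had the highest S phase mean (6.23, all 24 genes), with 13 of 26 G2 and M phase genes at 2.15. Cell C90 had the lowest G2 and M phase mean (1.19, 7 of 26 genes) and an S phase mean of 5.10 with 23 of 24 genes. Cell C79 was low in both, at 3.97 for S phase with 18 of 24 genes and 1.77 for G2 and M phase with 10 of 26 genes. Low mitotic levels thus occurred beside nearly complete S phase detection, and in 1 of these cells beside low S phase levels. Cells C46, C67 and C79 had 6506, 6060 and 6038 detected genes over all symbols. Cells C92 and C90 had 5057 and 4878, and were among the 7 cells with under 5189.

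The means of the phases were inversely related over the 48 cells (rho = -0.32, Pearson's r = -0.22; without the 2 cells farthest from the median S phase level rho = -0.36 and r = -0.30). The relation was stronger in the 25 cells with label numbers up to 48 (rho = -0.67, r = -0.65) than in the 23 cells above (rho = -0.19, r = -0.25), a difference that was not tested. The G2 and M phase mean was higher in cells with more detected genes (rho = 0.48) and lower in cells with higher label numbers (-0.47) and greater relative depth (-0.33). The S phase mean followed these less (0.17, -0.25 and 0.03). With the number of detected genes regressed out the relation was -0.46, and with the label number -0.51. It turned to 0.16 when each cell was rescaled to the same total, a total that includes short RNAs, and was -0.30 when their rows were left out first. The mean log2(FPKM + 1) of 6 housekeeping genes had a rho of 0.01 to the G2 and M phase mean and 0.13 to the S phase mean. Their summed FPKM, the measure used below for cell type markers, had -0.20 and 0.01.

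**Figure D5:**
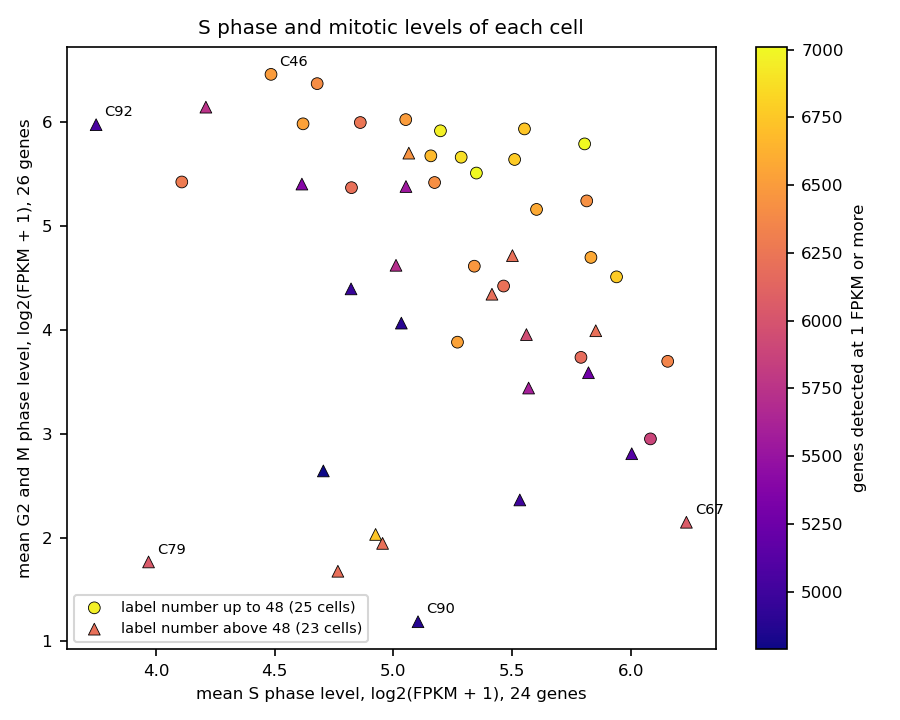
Mean G2 and M phase level against mean S phase level of each cell, both as log2(FPKM + 1); circles are the 25 cells with label numbers up to 48, triangles the 23 above, and colour gives the number of detected genes. Cell C67, highest on the S phase axis at 6.23, lies at 2.15 on the mitotic axis, cell C92 at 3.75 and 5.97, and cell C79 is low on both.

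Cell type markers were set beside the phase means. The summed mesoderm markers had a rho of -0.14 to the G2 and M phase mean and 0.13 to the S phase mean. The pluripotency markers had 0.11 and 0.34, and the endoderm markers, 2 of 5 of which were detected in at least 12 cells, -0.30 and 0.18. The part of these cell types in the levels of the 50 genes was not tested.

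Some genes outside the list followed its mitotic mean. Of 5810 other symbols detected in at least 24 cells, 41 (0.706%) had a rho of 0.5 or more to the G2 and M phase mean. Among the highest were Cks2, a small subunit of Cdk1 complexes (0.81; 0.77 up to label 48 and 0.66 above), Kpna2, a nuclear import receptor (0.77), Arl6ip1, a protein of the endoplasmic reticulum (0.76), and Prc1, the bundler of the spindle midzone (0.73). Kif20a, a cytokinesis motor (0.72), Bub3 of the spindle checkpoint (0.70), Cdc25c, the phosphatase that activates Cdk1 (0.68), Cdc42ep4, an effector of the GTPase Cdc42 (0.66), and Tubb4b, a beta tubulin (0.66), followed. For the genes named here the rho was between 0.38 and 0.77 up to label 48 and between 0.38 and 0.76 above.

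Fewer followed the S phase mean: 6 (0.103%) were at 0.5 or more. They were Hsp90aa1, a chaperone (0.54), Hat1, which acetylates new histone H4 (0.53), Cfdp1, a chromatin protein (0.53), Orc1, of the origin recognition complex (0.51), Nup214, a nuclear pore protein (0.51), and Tcea1, an elongation factor of RNA polymerase (0.50). Next came Atad2, a bromodomain ATPase (0.50), Pmm1, phosphomannomutase (0.50), Ncl, nucleolin (0.49), and Sod2, mitochondrial superoxide dismutase (0.49). Orc1 and Hat1 had 0.70 and 0.63 up to label 48, against 0.33 and 0.47 above.

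Of a second list of 66 other cell cycle genes, 61 were detected in at least 5 cells, and 11 had a rho of 0.5 or more to the G2 and M phase mean against 1 to the S phase mean, Orc1. The 11 were Cks2, Prc1, Kif20a and Cdc25c, named above, with Kif2c (0.62), a depolymerase of kinetochore microtubules, Bub1b (0.62), a checkpoint kinase, Kif4 (0.61), a chromosome motor, Fzr1 (0.61), the late activator of the anaphase-promoting complex, Gtse1 (0.58) and Dlgap5 (0.57), proteins of spindle microtubules, and Incenp (0.52), the scaffold of the passenger complex. Below 0 to the G2 and M phase mean were 17 of the 61 genes. They included the replication genes Uhrf1 (-0.50), which brings DNA methylation to new strands, and Prim1 (-0.32), the primase, and also Cdkn1c (-0.26), an inhibitor of cyclin-dependent kinases. To the S phase mean 27 were below 0. The medians over the list were 0.16 to the G2 and M phase mean and 0.04 to the S phase mean. Foxm1, the factor that raises mitotic genes, reached 1 FPKM in 26 cells (median 2.24 FPKM), and its rho was 0.47 to the G2 and M phase mean and -0.05 to the S phase mean.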

How the data were processed

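RNA of 48 single cells, 1 group, was measured. The authors deposited 1 table of values per gene and cell. They are treated as FPKM, since the deposited table names no unit and Cufflinks 2.2.1.0 is listed, per the submitters' processing notes. Those notes also list TopHat 0.7, CASAVA 1.8.2 and the mm10 build without saying what each did. The sources used here give no annotation, filter or scaling. Rows of the 240 symbols found on several of the 23746 rows were summed. The total FPKM of a cell was 480821 to 12864440, or 414300 to 703479 after removal of 792 short RNA symbols, whose lengths inflate FPKM.

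Correlations are Spearman's over cells; levels are log2(FPKM + 1), with a pseudocount of 1 FPKM. Excess variability is the squared coefficient of variation over a local regression on the mean (span 0.4, mean of at least 5 FPKM, at least 5 cells), called over 2-fold. Relative depth was fitted to low values (under 1 FPKM), with 99.5% of 1128 cell pairs within 0.1 log2 of the fitted ratio. No cell was removed; doublets could not be recognised. No pair of cells correlated above 0.82, so no library was counted more than once. No p-value was computed, since the labels name no culture. Promoters were matched by symbol. Procedures were tested on simulated data (Python 3.11.15, pandas 2.3.3, scipy 1.17.1, statsmodels 0.14.6).

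The genes and lists were chosen with earlier results of these data known. All 50 genes are named, with full values for the 4 highest and 4 lowest mean correlations per phase and the 5 strongest pairs. A few genes outside the list that were due to be named are not reported here. Alternatives were the detection threshold, pseudocount, scaling, Pearson correlation, filter, cells and covariates. Regression on relative depth was added after the data had been seen.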

Additional observations from a re-analysis of the deposited data

How the results depend on the processing

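The scaling of cells mattered most. With each cell rescaled to a total of 1000000, short RNAs included, the median rho was 0.38 within S phase, 0.56 within G2 and M phase and 0.17 between the phases, and the relation of the phase means was 0.16, so that both relations between phases turned positive. Without short RNA rows the same rescaling gave 0.13, 0.47, -0.10 and -0.30, so the change came with the short RNAs. The relation of the phase means also moved, to -0.46 with the number of detected genes regressed out, to -0.51 with the label number regressed out, to -0.67 in cells with label numbers up to 48 and to -0.19 in those above, and the median within G2 and M phase moved to 0.35 in cells up to label 48. The cause was not tested. In the other alternatives, which included thresholds of 0.1 and 10 FPKM, a pseudocount of 0.1 FPKM, Pearson correlation and leaving out 7 cells with under 5189 detected genes, no correlation moved by over 0.1. Between 44 and 49 genes were detected in enough cells, and between 45 and 49 genes were closer to their own phase. No paired analysis was possible because there is 1 group. With 48 cells of 1 sample and unknown absolute depth, a gene listed at 0 cannot be told apart from one that was missed, and the relations hold for these cells alone. Reads of overlapping or copied genes could not be separated.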
